A study of Mus musculus with 4 samples.

Results

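The CD300 receptor family was followed through 5 of its genes, Cd300a, Cd300lf, Cd300lb, Cd300ld and Cd300e, found by symbol among the 32285 genes of the deposited tables. The other 7 Cd300 genes in those tables were described by their totals. Single-cell RNA was measured in droplets, with 1 library each for metastasis lung, sham lung, metastasis blood and sham blood. The mice were female C57/Bl6 animals of 6 to 8 weeks. In the metastasis arm 800000 B16F10 cells, a mouse melanoma line, were injected into the spleen on day 0, which the labels describe as giving liver metastasis. In the sham arm saline was injected. In both arms the spleen was then removed, 250000 B16F10 cells were placed under the skin, and lungs and blood were taken on day 7, so the sham mice carried a tumour and lacked a spleen as well. How many mice went into each library is unknown here. The sources name both kits for the leukocyte marker CD45 and density centrifugation, and the tissue on which the kits were used is not stated. With 1 library per group no difference has a replicate check. No p-value was computed, and every interval covers counting error only. The 5 members were chosen by their CPM and share of cells with a UMI in the myeloid classes of these same libraries, metastasis against sham, so their levels and ratios are descriptions.

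CD300 proteins are immunoglobulin-domain receptors on the surface of myeloid cells, and many of them bind lipids such as phosphatidylserine, phosphatidylethanolamine or ceramide that are exposed on dying cells. They work as an inhibitory and activating set. Cd300a and Cd300lf carry inhibitory motifs in their own tails that recruit phosphatases such as Ptpn6 and Inpp5d. Cd300lb, Cd300ld and Cd300e have short tails and signal through adaptors such as Tyrobp and Fcer1g. In mice, Cd300lf is also the entry receptor of murine norovirus and a partner of the interleukin-4 receptor chain Il4ra, Cd300ld has been described on the neutrophils that gather in tumours, and CD300E in humans marks monocytes.

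In GENCODE on GRCm38, 11 of the 12 family genes lay side by side within 244 kb of chromosome 11, from 114890041 to 115133992. Cd300a (114890041 to 114904654) was on the plus strand and the other 10 were on the minus strand, among them Cd300lb (114922781 to 114934386), Cd300ld (114982274 to 114989922), Cd300e (115051917 to 115062177) and Cd300lf (115116214 to 115133992). Cd300lg lay 12.8 Mb away. The only protein-coding gene between them was Rab37, which runs on the plus strand from 115091431 to 115162236 and has Cd300lf inside it. No exon base of Cd300lf was shared with a Rab37 exon.

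The upstream windows of the 4 members that differed between the arms in blood neutrophils are shown because they are neighbours that differed in opposite directions. They are RefSeq sequences of GRCm38.p6, 5′ to 3′ on the strand of the gene, cut to the bases that lie before the annotated start in both RefSeq and GENCODE. Capitals mark matches to AGGAAG (an ETS-type core) or TTGCNNAA (C/EBP-type) on either strand. TTCNNNGAA (STAT-type) and TGANTCA (AP-1-type) were searched too and had no match in these 4.
Cd300lf, chr11:115133993-115134242, minus strand: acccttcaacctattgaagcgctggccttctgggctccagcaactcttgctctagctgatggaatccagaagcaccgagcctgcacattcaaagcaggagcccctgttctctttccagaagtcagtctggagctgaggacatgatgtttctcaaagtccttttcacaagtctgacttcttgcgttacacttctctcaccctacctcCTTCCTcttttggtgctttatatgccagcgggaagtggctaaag
Cd300a, chr11:114889791-114890040, plus strand: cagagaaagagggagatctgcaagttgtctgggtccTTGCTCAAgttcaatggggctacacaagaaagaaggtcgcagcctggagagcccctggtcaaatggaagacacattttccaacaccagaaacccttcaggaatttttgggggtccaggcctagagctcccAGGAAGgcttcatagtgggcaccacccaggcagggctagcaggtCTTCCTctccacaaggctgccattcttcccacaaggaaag
Cd300lb, chr11:114934387-114934621, minus strand: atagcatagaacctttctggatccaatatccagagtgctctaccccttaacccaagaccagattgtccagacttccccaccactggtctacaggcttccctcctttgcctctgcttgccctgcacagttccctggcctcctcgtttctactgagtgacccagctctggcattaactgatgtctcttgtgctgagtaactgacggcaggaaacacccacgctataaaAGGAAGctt
Cd300ld, chr11:114989923-114990136, minus strand: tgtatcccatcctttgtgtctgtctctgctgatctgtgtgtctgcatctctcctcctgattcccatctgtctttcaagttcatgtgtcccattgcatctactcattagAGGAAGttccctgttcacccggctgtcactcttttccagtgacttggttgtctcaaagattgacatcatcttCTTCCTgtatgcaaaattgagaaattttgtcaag

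In the full 250 bases before the RefSeq start, AGGAAG was present on either strand in all 10 family genes that the RefSeq table held, against 29.5% of 32851 promoters of that length. Cd300lf and Cd300lb held 1 match each, Cd300a held 2, and Cd300ld and Cd300e held 3 each. These 10 windows are not all separate sequences. Those of Cd300ld3 and Cd300ld4 were 94.8% identical, and further likenesses are given below. The Cd300c window lay inside the GENCODE gene. So did 138 bases of the Cd300e window, which held its matches at 137 and 116 bases before the RefSeq start. The C/EBP-type motif was present in Cd300a and the STAT-type motif in Cd300e, and they occurred in 9.56% and 7.02% of all promoters. The AP-1-type motif, present in 6.75% of all promoters, was in none of the 10. A match is a run of letters and not a bound site. Over the 204 aligned bases, the upstream window of Cd300ld was 90.7% identical to that of its near copy Cd300ld3, and the windows of Cd300ld4 and Cd300ld5 were identical to each other.

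Few transcript windows of the 5 members were shared with another family gene. Of the 90-base windows of its transcripts, Cd300ld shared 1.76% with Cd300lf, Cd300lf shared 0.833% with Cd300ld, and Cd300a shared 1.06% with Cd300c2, while Cd300lb and Cd300e shared none with another family gene. The near copies Cd300ld5, Cd300ld4 and Cd300ld3 shared 100%, 88.2% and 81.1% of their windows with other copies, so their totals of 0, 0 and 33 UMIs are uncertain. Cd300ld2 had 0 UMIs. The sources used here do not say whether counting used strand, and Rab37 on the other strand of Cd300lf was therefore read beside it. In T-like cells of lung Rab37 had 77 UMIs in the metastasis library and 298 in the sham library, while Cd300lf had 5 UMIs in each. In lung NK-like cells Rab37 had 130 and 309 UMIs in the metastasis and sham libraries and Cd300lf 35 and 55. In blood neutrophil-like cells Rab37 had 222 and 22 UMIs, and Cd300lf 4389 and 487. The level of Rab37 in those blood cells was 29.9 CPM in the metastasis library and 13.7 CPM in the sham library, so it differed in the same direction as Cd300lf, and its part in the Cd300lf counts was not tested.

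Cells were assigned to classes by how many of a class's marker genes each cell showed, so classes are called neutrophil-like and so on. The libraries gave 12969 cells in metastasis lung, 13443 in sham lung, 8483 in metastasis blood and 12274 in sham blood, and haemoglobin made up 78.1%, 65.7%, 78.6% and 43.7% of their UMIs. It was left out of the scaling, and levels are in CPM, the UMIs of a gene scaled to the same total of non-haemoglobin UMIs in each class and library. Neutrophil-like cells numbered 1309 in metastasis lung and 56 in sham lung, and 2458 in metastasis blood and 455 in sham blood. Classical monocyte-like cells numbered 91 and 33 in lung and 257 and 197 in blood, and non-classical monocyte-like cells 215 and 101 in lung and 86 and 180 in blood. Between 34 and 52 cell barcodes were shared by any pair of libraries, at most 0.477% of the smaller one. The neutrophil-like cells of sham lung held 129731 UMIs, against 2641289 in metastasis lung, so lung comparisons of that class rest on few cells. Most neutrophil-like cells of metastasis blood (1784) lay in cluster 24 of an unsupervised clustering and most of sham blood (427) in cluster 17, while cluster 7 held most of both lung libraries (1268 and 51).

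All 5 members were myeloid genes in these tissues. Neutrophil-like and both kinds of monocyte-like cells together held 85.5% of the Cd300a UMIs, 91.6% of those of Cd300lf, 91.4% of those of Cd300lb, 91.1% of those of Cd300ld and 86.5% of those of Cd300e. In T-like and B-like cells no member exceeded 3.04 CPM in any library. NK-like cells of lung had Cd300lf at 14.9 CPM in the metastasis library and 11.3 CPM in the sham library, and the other 4 members there were at 0.615 CPM or lower.

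Each member had its own order of classes. Cd300a was highest in non-classical monocyte-like cells, at 725 CPM in metastasis lung, 785 CPM in sham lung, 616 CPM in metastasis blood and 513 CPM in sham blood. The intervals of the 2 lung libraries overlapped. Lung was above blood, with a log2 ratio of 0.23 (0.03 to 0.44) in the metastasis arm and 0.61 (0.41 to 0.81) in the sham arm. It was lower in classical monocyte-like cells, between 345 and 512 CPM, and in neutrophil-like cells, between 204 and 371 CPM.

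Cd300lf was a gene of neutrophil-like cells, which held 87.1% of its UMIs. Its levels there were 414 CPM in metastasis lung, 339 CPM in sham lung, 590.2 CPM in metastasis blood and 304 CPM in sham blood. In the monocyte-like classes it lay between 7.03 and 85.0 CPM. Alveolar macrophage-like cells of lung, with only 25 and 27 cells, had it at 158 CPM in the metastasis library and 127 CPM in the sham library.

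Cd300lb was also highest in neutrophil-like cells, at 242 CPM in metastasis lung, 177 CPM in sham lung, 149 CPM in metastasis blood and 337 CPM in sham blood. Its classical monocyte-like levels were 106 and 172 CPM in the metastasis and sham libraries of lung and 49.3 and 71.7 CPM in those of blood. Cd300ld was shared by neutrophil-like and non-classical monocyte-like cells. In neutrophil-like cells it stood at 288 CPM in metastasis lung, 339 CPM in sham lung, 180.1 CPM in metastasis blood and 494 CPM in sham blood, and in non-classical monocyte-like cells at 328, 404, 307 and 279 CPM in the same order. Classical monocyte-like cells had between 27.8 and 80.0 CPM of it.

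Cd300e was a gene of non-classical monocyte-like cells, which held 82.9% of its UMIs. Its levels there were 314 CPM in metastasis lung, 269 CPM in sham lung, 171 CPM in metastasis blood and 254 CPM in sham blood. Classical monocyte-like cells of all 4 libraries together had 1 Cd300e UMI. Cd300e was thus nearly confined to this class among the 3 myeloid classes of blood, while lung neutrophil-like cells had a few UMIs, 29 in metastasis lung and 3 in sham lung.

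**Figure D1:**
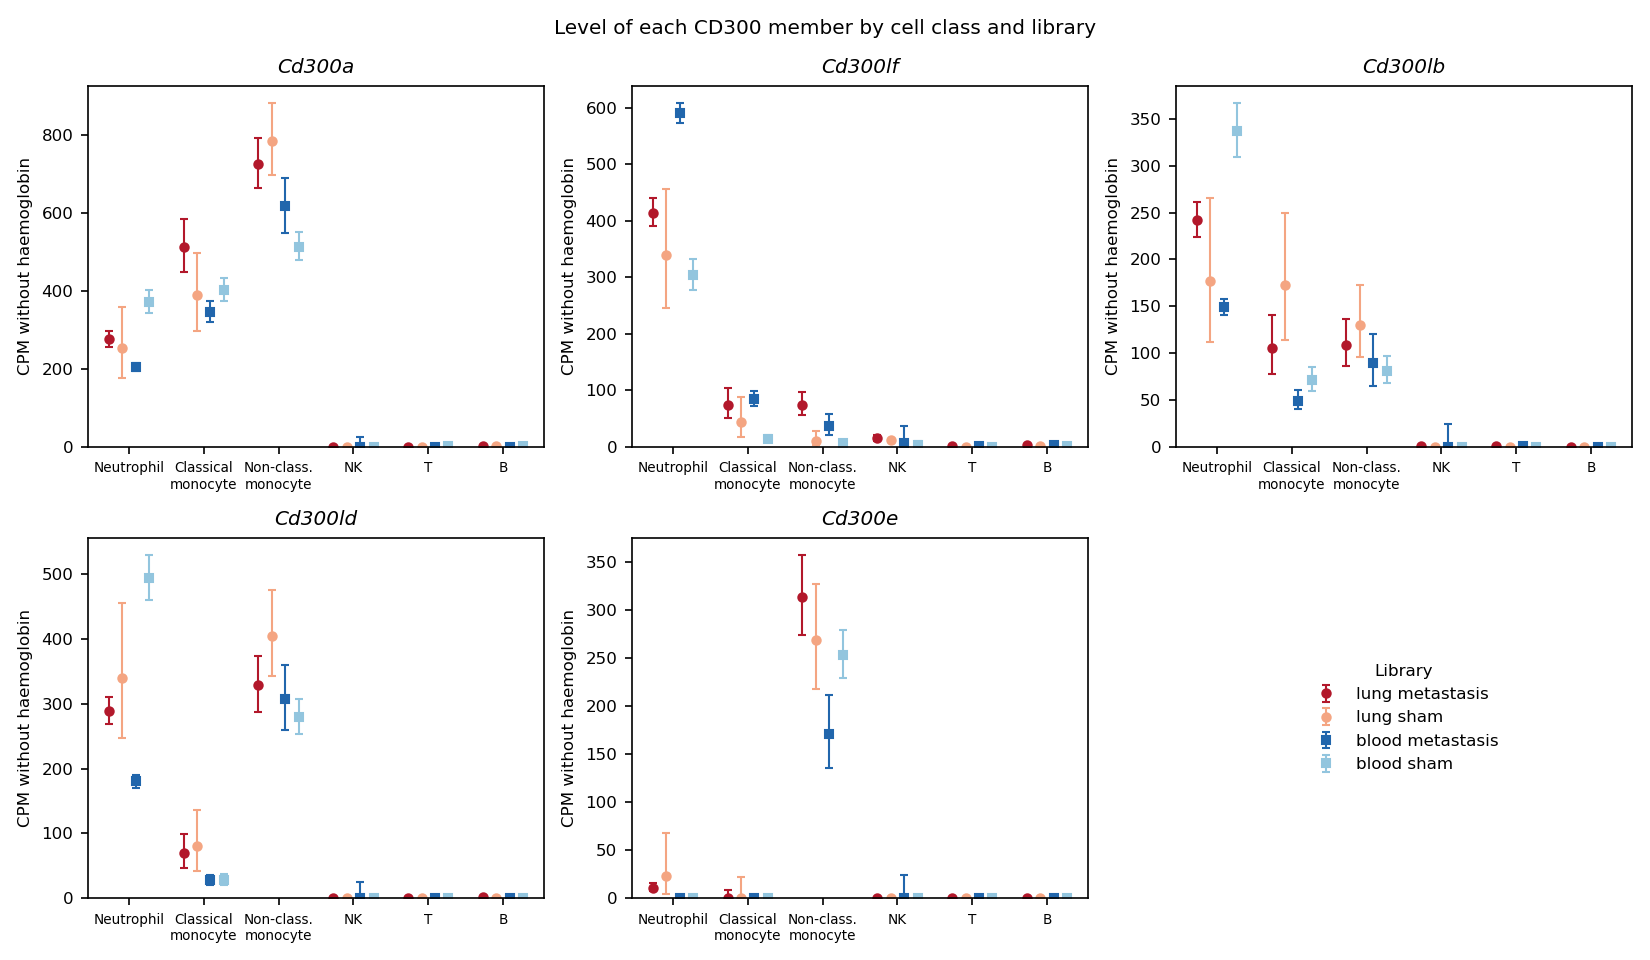
CPM without haemoglobin of each member (y axis, linear) in 6 cell classes (x axis) of the 4 libraries; points are class sums and bars are exact 95% Poisson intervals, which cover counting error only. Cd300e stands out in non-classical monocyte-like cells, Cd300lf in neutrophil-like cells, and all members are near 0 in T-like and B-like cells.

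The other family genes had narrower or lower patterns. Cd300c2, with 4426 UMIs, was highest in non-classical monocyte-like cells (683 and 586 CPM in the metastasis and sham libraries of lung). Cd300c had 115 UMIs, of which plasmacytoid dendritic-like cells of lung held 30 in the metastasis library (407 CPM) and 21 in the sham library (358 CPM). Of the 320 UMIs of Cd300lg, 61.2% were in classical monocyte-like cells, at between 30.8 and 50.9 CPM.

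The first question was how the members differed between metastasis and sham neutrophils of blood. The inhibitory receptor Cd300lf was higher in the metastasis library and Cd300a, Cd300lb and Cd300ld were lower. Cd300lf had 4389 UMIs (590.2 CPM, interval 573 to 608) in metastasis blood and 487 UMIs (304 CPM, 278 to 332) in sham blood, a log2 ratio of 0.96 (0.82 to 1.10) or 1.94-fold. Cd300a, the other inhibitory receptor, had 1520 UMIs (204 CPM) in metastasis blood and 595 UMIs (371 CPM) in sham blood, and was 1.82-fold lower (log2 -0.86, -0.999 to -0.723). The inhibitory pair thus differed in opposite directions, with intervals of the libraries that did not overlap for either gene.

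Over the whole class, though not in the strata below with up to 3 immature markers, the activating receptors had larger log2 differences than Cd300lf. Cd300lb had 1108 UMIs (149 CPM) in metastasis blood and 540 UMIs (337 CPM) in sham blood, and was 2.26-fold lower (log2 -1.18, -1.33 to -1.03). Cd300ld had 1339 UMIs (180.1 CPM) in metastasis blood and 791 UMIs (494 CPM) in sham blood, and was 2.74-fold lower (log2 -1.46, -1.58 to -1.33). The non-member Cd300c2 was lower as well, at 77.5 CPM in metastasis blood and 192 CPM in sham blood (log2 -1.31). Cd300e, with 1 UMI in each library, was not measured.

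Genes were taken as measured when the pair of libraries held 25 or more UMIs and averaged 10 CPM or more, and as higher or lower at 1.5-fold or more with an interval that excluded equality. By that rule 1 of the 4 measured members was higher and 3 were lower, while 12.6% of the 6237 genes measured in this comparison were higher and 19.2% were lower. The median log2 ratio of all measured genes was -0.10.

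The same UMIs can be written as a ratio within each library, which does not depend on scaling and adds no separate evidence. For every 100 UMIs of Cd300ld, neutrophil-like cells held 328 UMIs of Cd300lf (308 to 349) in metastasis blood and 61.6 (54.8 to 69.0) in sham blood. In lung they held 144 (131 to 158) in the metastasis library and 100 (64.3 to 155) in the sham library, where the intervals overlapped.

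Shares of cells were compared after each cell was thinned to 1000 UMIs, since the median depth of these cells was 2500.5 UMIs in metastasis blood and 2999 in sham blood. At that depth 45.2% (43.2 to 47.2) of 2418 neutrophil-like cells of metastasis blood had a Cd300lf UMI, against 29.7% (25.5 to 34.2) of 441 cells of sham blood. For Cd300ld the shares were 18.2% (16.7 to 19.8) in metastasis blood and 37.6% (33.1 to 42.3) in sham blood. For Cd300lb they were 14.3% in metastasis blood and 28.8% in sham blood, and for Cd300a 20.4% and 28.3%. The shares differed in the direction of the CPM for all 4 genes. Both come from the same UMIs and the members were chosen by both, so this adds no separate evidence. T-like cells, which should lack these genes, had a Cd300lf UMI in 1 cell of metastasis blood (0.172%) and in 0 of 2416 cells of sham blood, which allows a share of up to 0.124%. Their median depths were 3718 and 5428 UMIs before thinning. Unthinned, the Cd300lf shares of neutrophil-like cells were 77.6% in metastasis blood and 60.7% in sham blood. Without thinning those of Cd300ld were 36.8% and 76.3%.

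**Figure D2:**
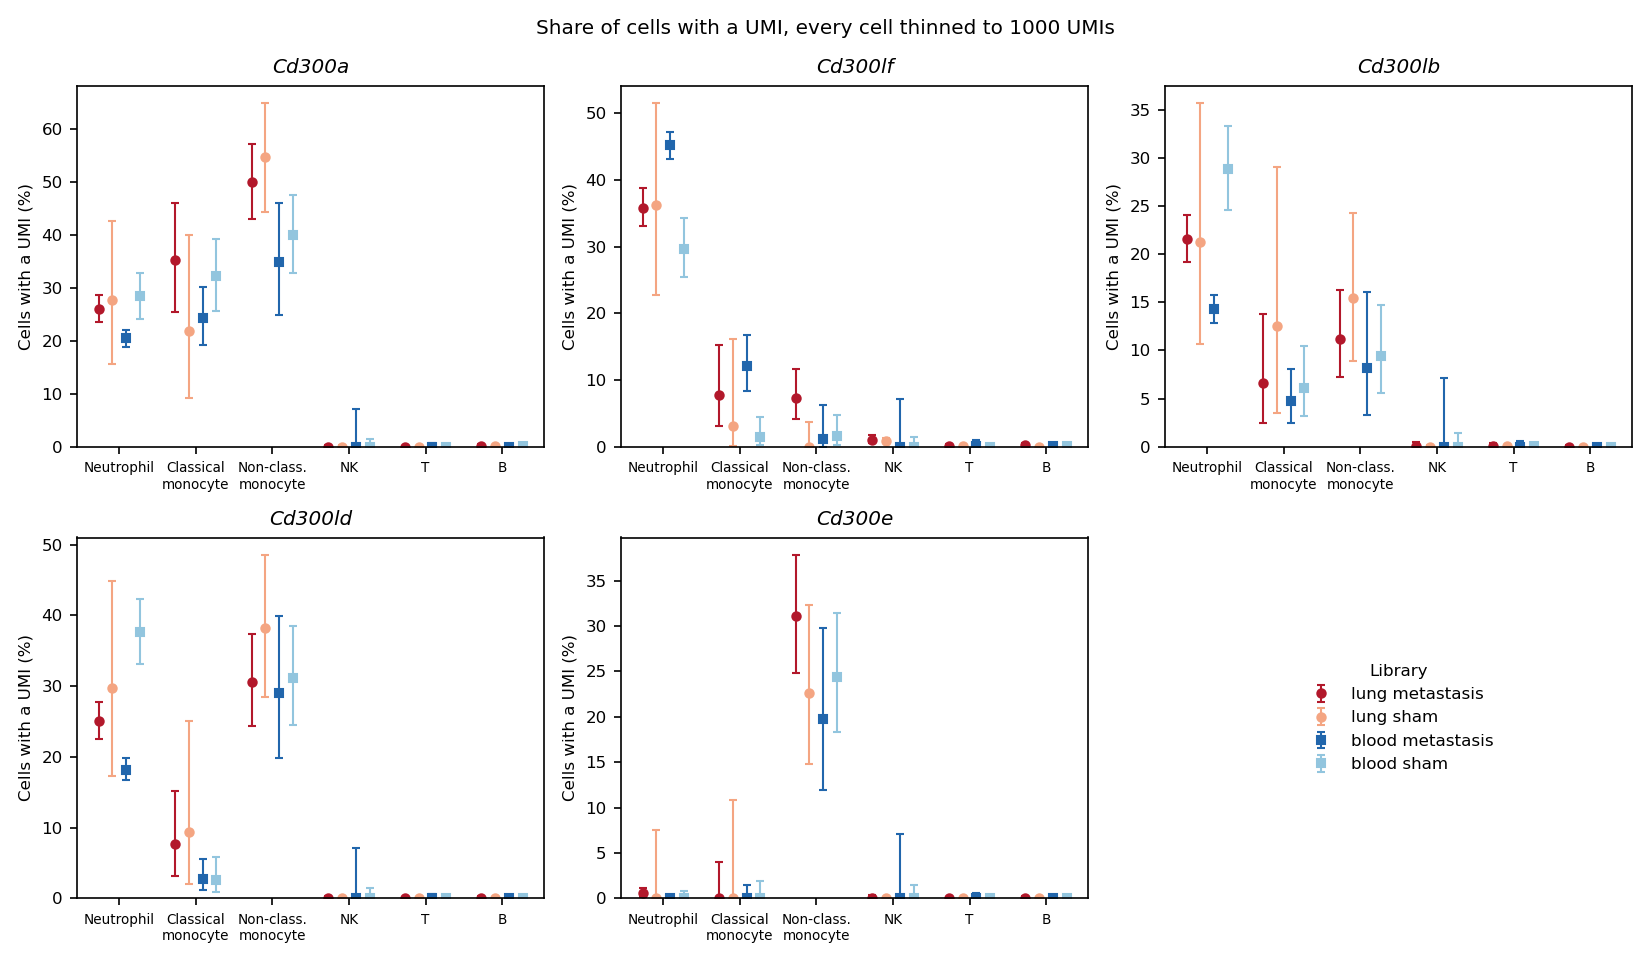
Share of cells with at least 1 UMI of each member (y axis, %) after thinning every cell to 1000 UMIs without haemoglobin, by class (x axis) and library; bars are exact 95% binomial intervals. In blood neutrophil-like cells the share with Cd300lf was 45.2% in the metastasis library and 29.7% in the sham library, and that with Cd300ld 18.2% and 37.6%.

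Thinned neutrophil-like cells usually showed 1 member or none. No member was detected in 32.3% of those of metastasis blood and 22.7% of those of sham blood, and 3 or more members in 5.13% and 9.75%. Among metastasis blood cells with a Cd300ld UMI, 47.7% also had Cd300lf, against 44.6% of the cells without one. In sham blood these shares were 28.9% and 30.2%, and in metastasis lung 41.0% and 34.1%. At the thinned depth, the share with Cd300lf was therefore similar in blood cells with and without a Cd300ld UMI. In metastasis lung it was somewhat higher in cells with one.

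Neutrophils leave the bone marrow with granule transcripts such as Ngp, Camp and Ltf that fade as the cells mature, and the libraries differed in them. The 9 immature markers summed to 19627 CPM in metastasis blood and 1772 CPM in sham blood, and to 34570 CPM in metastasis lung and 29237 CPM in sham lung. Platelet markers, a sign of platelets or their RNA adhering to a cell, summed to 4153 CPM in neutrophil-like cells of metastasis blood and 1652 CPM in those of sham blood. At least 2 platelet markers were found in 42.7% of these cells in metastasis blood and in 51.4% in sham blood. The blood comparison was therefore read again within cells that had no more than 1 platelet marker, in 3 strata of immature markers set after the data were seen. Markers were counted in unthinned cells. With at most 1 immature marker the median depth was 1791.5 UMIs in metastasis blood and 2688 in sham blood, and with 2 or 3 it was 1997 and 3036. A shallower cell shows fewer markers, so a stratum may not hold equally mature cells in both libraries.

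Cd300lf was higher in all 3 strata. In cells with at most 1 immature marker it was at 625 CPM in 290 cells of metastasis blood and 346 CPM in 144 cells of sham blood (log2 0.85, 0.55 to 1.16). With 2 or 3 markers it was at 708 CPM in metastasis blood and 330 CPM in sham blood (log2 1.10, 0.74 to 1.49). With 4 or more it was at 479 CPM in 718 cells of metastasis blood and 188 CPM in 11 cells of sham blood (log2 1.35, 0.57 to 2.26). Cells with platelet transcripts and at most 1 immature marker also had more of it, with 622 CPM in metastasis blood and 287 CPM in sham blood (log2 1.11, 0.78 to 1.45).

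The lower members behaved differently. In cells with at most 1 immature marker none of the 3 met the rule, beside 7.19% of measured genes that were lower and 7.87% that were higher. Cd300a was at 348 CPM in metastasis blood and 335 CPM in sham blood (log2 0.06, -0.28 to 0.40), so the lower level seen over the whole class was not seen among these cells. Cd300lb was at 281 CPM in metastasis blood and 371 CPM in sham blood (log2 -0.40, -0.75 to -0.05). Cd300ld was at 419 CPM in metastasis blood and 604 CPM in sham blood (log2 -0.53, -0.80 to -0.25), less than 1.5-fold but with an interval below equality. In cells with 2 or 3 immature markers Cd300lb (log2 -0.73) and Cd300ld (log2 -0.77) met the rule and Cd300a (log2 -0.58) did not, beside 9.7% of measured genes that were lower and 9.17% that were higher. In cells with 4 or more, Cd300ld met it (104 CPM in metastasis blood and 303 CPM in sham blood, log2 -1.54), with 11.1% of genes lower and 3.57% higher. In cells with platelet transcripts and at most 1 immature marker, Cd300lb (log2 -1.05) and Cd300ld (log2 -0.62) met it, with 7.97% of genes lower and 10.6% higher. Cd300a there was at 295 CPM in metastasis blood and 419 CPM in sham blood (log2 -0.51, -0.89 to -0.14), short of 1.5-fold but with an interval below equality.

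Within a library the members were also compared along the immature markers. In metastasis blood, cells with 4 or more markers had 114 CPM of Cd300ld, against 391 CPM in cells with at most 1 (log2 -1.78, -1.98 to -1.58). In metastasis lung the same comparison gave 162 CPM and 575 CPM (log2 -1.83, -2.07 to -1.59). Cd300a showed a log2 ratio of -0.97 in metastasis blood and -1.71 in metastasis lung. For Cd300lf it was only -0.21 in metastasis blood and -0.44 in metastasis lung, so Cd300lf changed least with the immature markers in blood. Cd300lb was unlike the rest, at -0.98 in metastasis blood but -0.13 (-0.42 to 0.17) in metastasis lung. In sham blood, where only 22 cells had 4 or more markers, the Cd300ld ratio was -0.51 (-0.95 to -0.09) and that of Cd300lf was -0.03 (-0.55 to 0.45). In sham lung, with 15 cells of 4 or more markers and 32 of at most 1, the ratio of Cd300lf was -1.38 (-2.48 to -0.35), close to the -1.44 (-2.53 to -0.42) of Cd300ld.

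**Figure D3:**
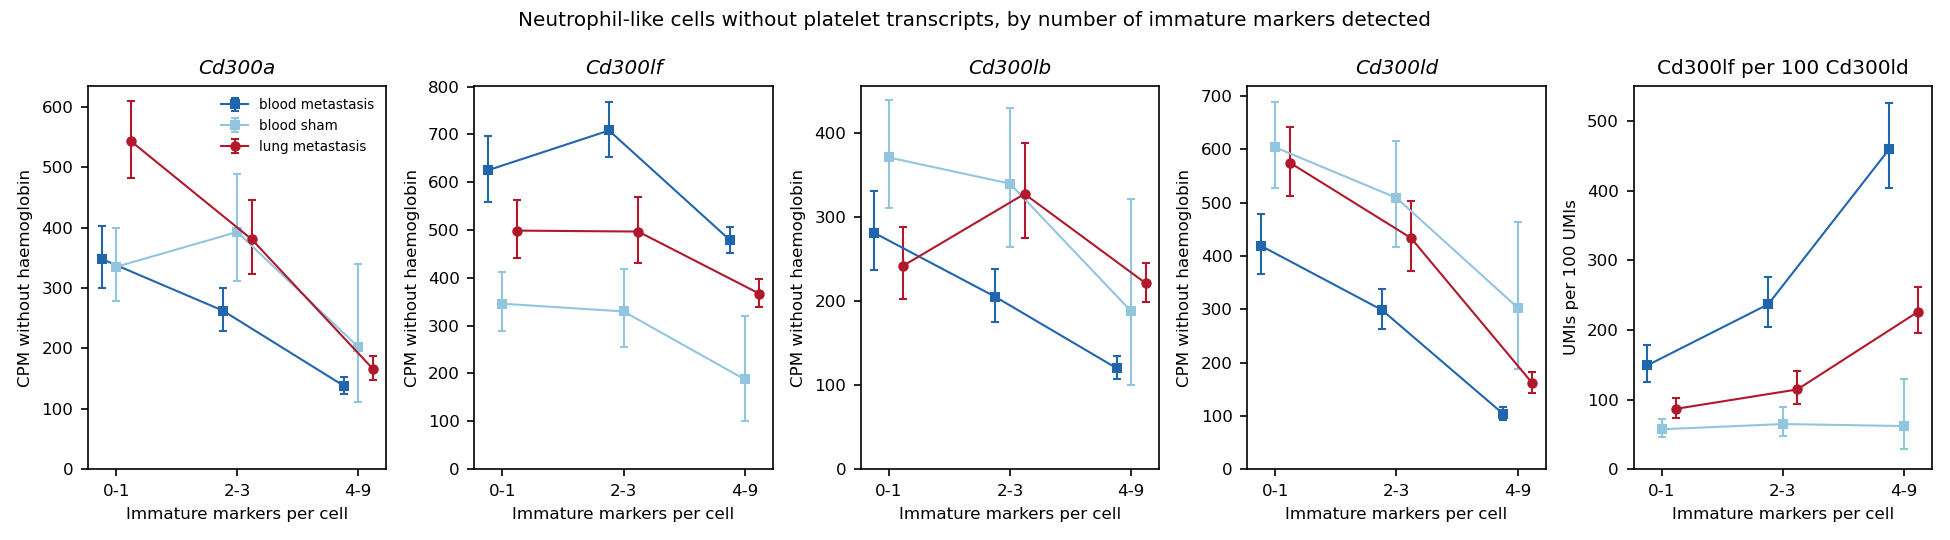
CPM of 4 members and Cd300lf UMIs per 100 Cd300ld UMIs (y axes) in neutrophil-like cells without platelet transcripts, split by the number of immature markers detected per cell (x axis), for metastasis blood, sham blood and metastasis lung; bars are exact 95% intervals. The Cd300lf line of metastasis blood lies above that of sham blood in all 3 strata, while Cd300a is at 348 CPM in metastasis blood and 335 CPM in sham blood among cells with at most 1 marker.

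In lung neutrophil-like cells none of the 5 members met the rule, while 2.48% of the 5237 measured genes were higher and 6.95% were lower. Cd300lf had 1094 UMIs (414 CPM) in metastasis lung and 44 UMIs (339 CPM) in sham lung (log2 0.29, -0.15 to 0.76). Cd300a was at 276 CPM in metastasis lung and 254 CPM in sham lung (log2 0.12, -0.38 to 0.67), and Cd300lb at 242 CPM and 177 CPM (log2 0.45, -0.15 to 1.12). Cd300ld was at 288 CPM in metastasis lung and 339 CPM in sham lung (log2 -0.23, -0.67 to 0.24). The intervals for Cd300a, Cd300lb and Cd300ld lay above their log2 ratios in blood, and the interval for Cd300lf lay below 0.82, the lower bound of its ratio in blood. That does not hold without cells over 5% haemoglobin, where the lung log2 ratio of Cd300lf was 1.04 and met the rule. The difference between the tissues itself was not tested. Among cells with 4 or more immature markers Cd300lf met the rule in lung as well, with 621 UMIs (367 CPM) in metastasis lung and 13 UMIs (212 CPM) in sham lung (log2 0.79, 0.0098 to 1.71), beside 2.78% of measured genes that were higher and 5.23% that were lower. Among cells with at most 1 marker no member met it, with 3.15% of genes higher and 3.51% lower, and Cd300lf was at 499 CPM in metastasis lung and 552 CPM in sham lung. Cd300e had 29 UMIs in metastasis lung and 3 UMIs in sham lung (10.98 and 23.1 CPM, log2 -1.07, -2.76 to 1.28). The non-classical monocyte markers summed to 1102 CPM in these cells of metastasis lung and 1411 CPM in those of sham lung, and their part in the Cd300e counts was not tested.

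Between lung and blood neutrophil-like cells, the log2 ratios of Cd300a, Cd300lb, Cd300ld and Cd300lf had opposite signs in the metastasis and sham arms. The non-member Cd300c2 did too (log2 0.44 in the metastasis arm and -1.64 in the sham arm). Cd300lb met the 1.5-fold rule in both arms, Cd300ld only in the metastasis arm, and Cd300a and Cd300lf in neither. The share of all measured genes that met it is not given here. These ratios use the same class sums as the comparisons of metastasis with sham above. In the metastasis arm, lung cells had more Cd300lb (242 CPM against 149 CPM in blood, log2 0.70) and Cd300ld (288 CPM against 180.1 CPM, log2 0.68) and less Cd300lf (414 CPM against 590.2 CPM, log2 -0.51). In the sham arm, lung cells had less Cd300lb (177 CPM against 337 CPM in blood, log2 -0.93), and Cd300ld was at 339 CPM in lung and 494 CPM in blood (log2 -0.54, -1.01 to -0.10). Cd300a was at 276 CPM in lung and 204 CPM in blood in the metastasis arm (log2 0.44), and at 254 CPM and 371 CPM in the sham arm (log2 -0.55). Cd300lf in the sham arm was at 339 CPM in lung and 304 CPM in blood (log2 0.16, with an interval that included equality). The 9 immature markers summed to 34570 CPM in lung and 19627 CPM in blood of the metastasis arm, and to 29237 and 1772 CPM in the sham arm. Their part in these ratios was not tested. The arms share no library here, but tissue and cell preparation cannot be told apart. Per the labels' protocols lungs were filtered and passed over dead-cell columns and blood went through density centrifugation, and the tissue on which CD45 kits were used is not stated.

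The second question was whether monocytes showed the same differences. In classical monocyte-like cells of blood Cd300lf was again higher, and the only member that met the rule, while 6.79% of 7580 measured genes were higher and 5.28% were lower. It had 162 UMIs (85.0 CPM, 72.4 to 99.2) in metastasis blood and 25 UMIs (13.7 CPM, 8.86 to 20.2) in sham blood, a 6.21-fold difference (log2 2.63, 2.02 to 3.30). Cd300a was at 345 CPM in metastasis blood and 402 CPM in sham blood (log2 -0.22, -0.37 to -0.07), Cd300lb at 49.3 and 71.7 CPM (log2 -0.54, -0.94 to -0.15), and Cd300ld at 27.8 and 27.9 CPM. None of these 3 reached 1.5-fold. After thinning, a Cd300lf UMI was found in 12.2% (8.41 to 16.8) of 255 cells of metastasis blood and 1.53% (0.317 to 4.41) of 196 cells of sham blood. Unthinned shares were 37.7% and 10.2%.

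Neutrophil transcripts also differed between these monocyte-like cells. The 13 neutrophil markers summed to 3352 CPM in metastasis blood and 1115 CPM in sham blood, with all 13 detected in both, and their part in the Cd300lf counts was not tested. The platelet markers summed to 2883 CPM in metastasis blood and 1097 CPM in sham blood. Of single neutrophil genes, Retnlg had 316 UMIs in these cells of metastasis blood and 56 in those of sham blood, S100a8 had 2612 and 385, and Csf3r had 196 and 244. For every 100 Retnlg UMIs there were 51.3 Cd300lf UMIs in metastasis blood and 44.6 in sham blood, and for every 100 S100a8 UMIs there were 6.20 and 6.49. For every 100 Csf3r UMIs there were 82.7 in metastasis blood and 10.2 in sham blood. S100a9 was at 739 CPM in metastasis blood and 341 CPM in sham blood, and Csf3r at 103 and 134 CPM. Cd300lf therefore differed between the arms by about as much as Retnlg and S100a8 did in this class, but by more than S100a9. Csf3r differed in the opposite direction. In neutrophil-like cells there were 2.23 Cd300lf UMIs per 100 of Retnlg in metastasis blood and 6.32 in sham blood. Per 100 of S100a8 there were 1.00 and 1.18, and per 100 of Csf3r 36.8 and 9.11. The direction in neutrophil-like cells thus depended on the gene chosen. Among classical monocyte-like cells without platelet transcripts the log2 ratio was 1.87 for Cd300lf and 1.04 for Cd300ld.

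In classical monocyte-like cells of lung none of the 4 measured members met the rule, with 3.12% of 3715 measured genes higher and 3.45% lower. Cd300lf had 33 UMIs (74.1 CPM) in metastasis lung and 7 UMIs (43.1 CPM) in sham lung (log2 0.78, -0.42 to 2.20). Retnlg had 1 UMI in these cells of metastasis lung and 0 in those of sham lung, S100a8 had 55 and 1, and Csf3r had 25 and 15. In CPM, S100a8 was at 123 in metastasis lung and 6.15 in sham lung, and Csf3r at 56.1 and 92.3. Cd300a was at 512 CPM in metastasis lung and 388 CPM in sham lung (log2 0.40, -0.01 to 0.83), and Cd300lb at 106 and 172 CPM (log2 -0.71, -1.41 to 0.02). Of the other family genes, Cd300c2 was higher, at 198 CPM in metastasis lung and 98.5 CPM in sham lung (log2 1.00, 0.23 to 1.87).

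In non-classical monocyte-like cells of lung Cd300lf was the only member of 5 that met the rule, with 3.83% of 5503 measured genes higher and 4.18% lower. It had 53 UMIs (74.0 CPM, 55.4 to 96.8) in metastasis lung and 4 UMIs (10.9 CPM, 2.96 to 27.8) in sham lung (log2 2.77, 1.33 to 4.70). In the same cells Retnlg had 5 UMIs in metastasis lung and 1 in sham lung, S100a8 had 48 and 5, and Csf3r had 61 and 31. In CPM, S100a8 was at 67.0 in metastasis lung and 13.6 in sham lung, and Csf3r at 85.2 and 84.2. The S100a8 counts thus differed in the direction of Cd300lf, and their part in it was not tested. The 13 neutrophil markers summed to 851 CPM in metastasis lung and 649 CPM in sham lung, with Cxcr2 at 0 in both. After thinning, 15 of 206 cells of metastasis lung (7.28%, 4.13 to 11.7) and 0 of 97 cells of sham lung had a Cd300lf UMI, and 0 cells allows a share of up to 3.09%. Cd300e, the receptor most typical of these cells, was at 314 CPM in metastasis lung and 269 CPM in sham lung (log2 0.23, -0.12 to 0.58). Cd300ld was at 328 and 404 CPM (log2 -0.30, -0.60 to 0.0046) and Cd300a at 725 and 785 CPM (log2 -0.11).

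In the same class of blood Cd300lf had 18 UMIs (36.6 CPM) in metastasis blood and 11 UMIs (7.03 CPM) in sham blood (log2 2.38, 1.22 to 3.61), and met the rule, with 4.54% of 7340 measured genes higher and 7.07% lower. This value rests on few counts: after thinning, 1 of 86 cells of metastasis blood and 3 of 180 of sham blood had a Cd300lf UMI. In these cells Retnlg was at 20.3 CPM in metastasis blood and 3.84 CPM in sham blood, and S100a8 at 226 and 108 CPM. Csf3r was at 108 and 137 CPM, and S100a9 at 209 CPM in both. The part of neutrophil transcripts in the Cd300lf counts was not tested. Cd300e was at 171 CPM in metastasis blood and 254 CPM in sham blood (log2 -0.57, -0.93 to -0.23), just short of 1.5-fold. In a thinned cell it was found in 19.8% of 86 cells of metastasis blood and 24.4% of 180 of sham blood, with intervals that overlapped. Cd300a (log2 0.26), Cd300lb (0.14) and Cd300ld (0.14) did not reach 1.5-fold.

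**Figure D4:**
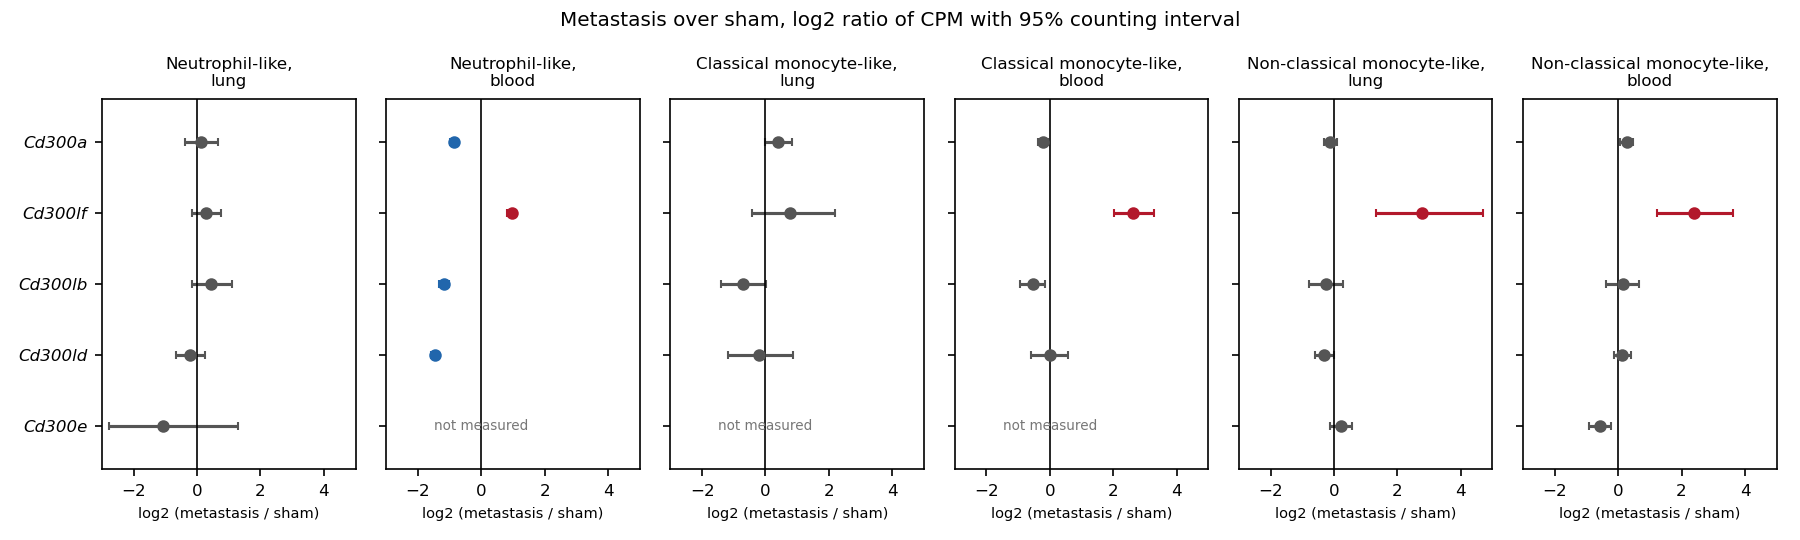
Log2 ratio of CPM, metastasis over sham (x axis), of the 5 members (y axis) in 3 classes of 2 tissues; points are ratios, bars exact 95% counting intervals, red and blue mark 1.5-fold or more higher or lower with an interval that excludes equality. Cd300lf is at or above 0.96 in the 4 comparisons in red, and Cd300a, Cd300lb and Cd300ld are lower in blood neutrophil-like cells.

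Signalling partners of the family were read from a list of 11 adaptors and enzymes, all of them measured. In blood neutrophil-like cells 2 met the rule as higher and 2 as lower. That is near the shares over all measured genes, 12.6% higher and 19.2% lower. Their median log2 ratio was -0.26, against -0.10 for all measured genes. Hcst, an adaptor of activating receptors, was at 483 CPM in metastasis blood and 300.3 CPM in sham blood (log2 0.69). The phosphatase Ptpn11 was at 53.5 and 29.3 CPM (log2 0.87), and the lipid phosphatase Inpp5d at 357 and 553 CPM (log2 -0.63). Tyrobp and Fcer1g, the adaptors of the activating members, did not reach 1.5-fold, with log2 ratios of -0.26 and 0.27. In lung none of the 11 met the rule. Their median was 0.13, or 0.06 with Ptpn11 set to a floor of 3 counts, since it had 62 UMIs in metastasis lung and 0 in sham lung. Inpp5d had a log2 ratio of -0.55 there (-0.97 to -0.10), short of 1.5-fold.

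Of 24 other paired and inhibitory myeloid receptors, 19 were measured in blood neutrophil-like cells, where 3 were higher, 5 were lower and the log2 ratios had a median of -0.06. These counts too are near the 12.6% and 19.2% over all measured genes. Sirpb1a was at 19.1 CPM in metastasis blood and 48.1 CPM in sham blood (log2 -1.33), Lair1, an inhibitory collagen receptor, at 13.2 and 26.8 CPM (log2 -1.03), and Treml2 at 96.0 and 49.9 CPM (log2 0.94). In lung, Siglece, a sialic acid receptor, was higher (85.6 CPM in metastasis lung and 30.8 CPM in sham lung, log2 1.47, 0.10 to 3.36) and Treml2 lower (40.9 and 84.8 CPM, log2 -1.05, -1.95 to -0.01), and these were the only ones of 18 measured, beside 2.48% of all measured genes that were higher and 6.95% that were lower. Treml2 thus differed in opposite directions in the 2 tissues, and that difference was not tested. Treml4 had a log2 ratio of 1.06 (-0.09 to 2.52) in lung.

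Among 7 genes listed here as partners or ligands, 5 were measured and 3 were higher in blood, beside 12.6% of all measured genes that were higher. The median of the 5 log2 ratios was 0.96. Il4ra, the partner of Cd300lf, was at 154 CPM in metastasis blood and 73.0 CPM in sham blood (log2 1.08, 0.80 to 1.37). The calprotectin genes S100a8 (log2 1.20) and S100a9 (log2 0.96), used here also as markers of neutrophils, were higher too. The median was the value of S100a9 itself. In lung none met the rule, and Il4ra had 143 UMIs in metastasis lung and 4 in sham lung (log2 0.81, -0.58 to 2.71).

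Across 27 units of class and library with at least 50 cells, the genes whose levels were most like each member's were found by Pearson correlation of log2 (CPM + 10) among 6901 genes. For Cd300a these were Klra2 (r = 0.995), Igsf6 and Gpr35. Cd300lf was most like Cxcl2 (r = 0.964), Cd33 and Lilr4b, and Cd300lb like Sirpb1b (r = 0.985), Rasgrp4 and Dgat2. All 3 genes most like Cd300ld were of the paired PILR receptors, Pilrb2 (r = 0.987), Pilrb1 and Pilra. Cd300e was most like Eno3 (r = 0.976), a marker used to define non-classical monocyte-like cells, Lilra5 and Ccdc192. The units share libraries and differ mostly by class, so these values mostly describe class patterns.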

How the data were processed

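The authors deposited raw UMI counts per gene and barcode, with no normalisation, as 1 matrix for each library. The submitters' processing notes list the tools Cell Ranger 7.0.0, Seurat 4.3.0.1 and R 4.3.1 and the build GRCm38.p6, without giving their roles. Barcodes had at least 500 UMIs. Cells were kept here if they showed 200 genes or more and 10% mitochondrial UMIs or less, and those with a Scrublet doublet score over 0.3 (scanpy 1.11.5) were removed. A cell took the class with the largest share of its marker list detected, given at least 3 markers, 33% of the list and a lead of 10 percentage points. UMIs were summed per class and library and scaled without haemoglobin. Log2 ratios carry exact conditional binomial 95% intervals, levels Poisson and shares Clopper-Pearson ones (scipy 1.17.1). The ratio calculation was tested on simulated data.

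The members, marker lists and gene lists were chosen with earlier results of these data known, and the assignment rule and the strata after the data were seen. The 5 members, the other Cd300 genes, the 3 largest ratios of each list and the 3 most alike genes were named. A list gene that this rule names is not reported here. The alternatives covered scaling, cell filters, doublets, clustering, platelet and haemoglobin content, thinning and thresholds. Cells that met no class's rule were left unassigned.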

Additional observations from a re-analysis of the deposited data

Results flagged for a closer look

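Cd300lf also appeared in blood cells that met no class's rule and so entered no comparison. Its level there was 65.11 CPM in the metastasis library (205 UMIs in 3069 cells) and 36.08 CPM in the sham library (63 UMIs in 396 cells), a log2 ratio of 0.85 (0.44 to 1.28). It drew attention as a signal outside the classes that was higher in metastasis blood than in sham blood. Haemoglobin made up most UMIs in 96.2% of these cells in metastasis blood and in 52.3% of those in sham blood, and the part of adhering or free RNA in the counts was not tested.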

How the results depend on the processing

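No paired analysis was possible because each group has 1 library, and for the same reason no library could be left out. Over the alternatives, log2 ratios in blood neutrophil-like cells ran from 0.75 to 1.11 for Cd300lf, from -0.99 to 0.056 for Cd300a, from -1.30 to -0.40 for Cd300lb and from -1.58 to -0.53 for Cd300ld. The 0.056 of Cd300a, and a count of 0 members lower in place of 3, came from cells with at most 1 immature marker and no platelet transcripts, an alternative added after seeing the data. At 2-fold, 0 members were higher there. In lung neutrophil-like cells 1 member was higher when libraries were scaled by median gene ratios (Cd300lb) and 1 without cells over 5% haemoglobin (Cd300lf, log2 1.04), against 0. The lung log2 ratio of Cd300lf ran from -0.15 to 1.04.

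In classical monocyte-like cells of lung, 1 member was lower with median-of-ratios scaling and 1 with doublets kept (Cd300lb both times), and 1 was higher with classes from clusters (Cd300lf). In those of blood, 1 was lower with haemoglobin in the CPM and 1 when CPM was averaged over cells (Cd300lb), and 2 were higher without platelet-carrying cells. Cd300lf there ran from 1.87 to 2.86. In non-classical monocyte-like cells of lung 0 members were higher after thinning to 1000 UMIs, where Cd300lf was left with too few UMIs to count as measured (15 of 206 cells of metastasis lung and 0 of 97 of sham lung). In those of blood, 0 were higher after thinning, where the Cd300lf log2 ratio was -0.52, and 0 without platelet-carrying cells, where it fell under the UMI minimum. Cd300e was the 1 member lower there with haemoglobin in the CPM, with CPM averaged over cells and without platelet-carrying cells. The causes were not tested. Of 172 counts of members, 156 stayed within 1.5 times and 16 did not. Of 383 log2 ratios 20 moved by more than their counting interval and 2 reversed. When cells were thinned to 500 in place of 1000 UMIs, 41 of 60 shares moved beyond their intervals. A lower depth lowers such shares by itself, so this count does not test the differences between the arms. Few cells limit the sham lung comparisons, with 56 neutrophil-like and 33 classical monocyte-like cells.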
